A study of Mus musculus with 4 samples.

Results

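The Notch receptor genes Notch1, Notch2 and Notch3 and the Notch target genes Dtx1, Hes1 and Nrarp were examined for open chromatin in immature fetal γδ thymocytes with and without c-Maf. Overlapping peaks (at least 1 bp) from the 4 lists were joined into regions, and each region went to the protein-coding gene whose body was nearest, if within 100 kb. Of 171490 regions in the series, 159307 had a protein-coding gene within 100 kb. Those of the 6 genes comprised 119 called in at least 2 libraries and 39 called in 1, where a region is called in a library if a peak of it lies there. They were divided into 27 at Notch1, 39 at Notch2, 21 at Notch3, 13 at Dtx1, 39 at Hes1 and 19 at Nrarp.

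Notch receptors are single-pass membrane proteins that are cut after ligand binding, so that their intracellular part enters the nucleus, joins the DNA-binding protein RBPJ and turns on target genes. In the thymus, Notch1 signals drive T lineage commitment, and Notch3 is a receptor of immature thymocytes. Dtx1 (Deltex1, a ubiquitin ligase), Hes1 (a repressor of the basic helix-loop-helix class) and Nrarp (an ankyrin repeat protein that limits Notch signals) are direct targets in many cells, and Dtx1 and Nrarp feed back on the pathway.

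Chromatin was assayed by Omni-ATAC-seq, which marks accessible DNA by insertion of the transposase Tn5. The Maf KO libraries came from Maf fl/fl Il7rCre fetuses and the Maf WT libraries from Maf+/+ Il7rCre fetuses, 2 libraries each, so that fetuses of both genotypes carried the Cre driven by Il7r, which acts in lymphoid precursors. Per the labels, fetuses of embryonic day 17 to 18 on a C57Bl/6 background (5 backcross generations) were pooled, and thymocytes (15 to 17, in units of 1000) were sorted for CD3e, the γδ T cell receptor, CD24 and low CD45RB, without CD4 or CD8. Nothing in the labels says that libraries of a genotype came from separate pools, so the p-values measure the spread between libraries, which may be technical.

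The lists held 130935 and 120141 peaks in KO 1 and KO 2, against 102718 and 132179 in WT 1 and WT 2. The background pileup, an estimate of depth, was 0.877 and 0.758 in KO 1 and KO 2, against 1.57 and 1.38 in WT 1 and WT 2. Depth therefore did not overlap between the genotypes, and its part in the results below was not tested. List length did not follow this estimate, since WT 1 had the highest pileup and the shortest list. Why WT 1 had the fewest peaks was not tested. Every library had a peak close to a gene end (1 kb or less) at 10 of 10 T and γδ T cell markers, 4 of 4 immature thymocyte markers and 4 of 4 αβ lineage markers. Such peaks were found for 2 of 4 B cell markers and 1 of 4 myeloid markers in every library, for 3 and 2 (KO) against 2 and 2 (WT) of 4 erythroid markers, and for 3 and 4 (KO) against 4 and 4 (WT) of 6 stromal markers. Pax5, Csf1r, Mpo, Lyz2, Gata1, Pecam1 and Pdgfra had none in any library. At the deleted gene, Maf, 1 of 16 regions called in at least 2 libraries was called in both KO libraries alone (6.25%, beside 4.19% over all genes) and 4 in both WT libraries alone (25%, beside 2.90%). Of those 4, 1 overlapped the gene body, where loss of the DNA and closed chromatin cannot be told apart, and 3 lay outside it.

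The promoter windows of Notch1, Notch3 and Nrarp are printed because the peaks at their start sites ranged from tall to low, by fold over local background. Each runs from 250 bases before to 50 after the start (RefSeq, GRCm38.p6), 5′ to 3′ on the gene's strand, and capitals mark the bases that lay inside a peak of all 4 libraries. Notch1 is chr2:26503773-26504072 (minus strand), Notch3 chr17:32166841-32167140 (minus strand) and Nrarp chr2:25180508-25180807 (plus strand).
Notch1: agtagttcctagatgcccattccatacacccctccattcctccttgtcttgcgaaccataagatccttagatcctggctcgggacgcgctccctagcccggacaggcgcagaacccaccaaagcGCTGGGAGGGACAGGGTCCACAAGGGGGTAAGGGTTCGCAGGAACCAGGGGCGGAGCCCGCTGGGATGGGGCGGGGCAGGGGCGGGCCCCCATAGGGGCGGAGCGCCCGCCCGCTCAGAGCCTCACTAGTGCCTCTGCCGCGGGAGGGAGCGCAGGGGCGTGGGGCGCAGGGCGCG
Notch3: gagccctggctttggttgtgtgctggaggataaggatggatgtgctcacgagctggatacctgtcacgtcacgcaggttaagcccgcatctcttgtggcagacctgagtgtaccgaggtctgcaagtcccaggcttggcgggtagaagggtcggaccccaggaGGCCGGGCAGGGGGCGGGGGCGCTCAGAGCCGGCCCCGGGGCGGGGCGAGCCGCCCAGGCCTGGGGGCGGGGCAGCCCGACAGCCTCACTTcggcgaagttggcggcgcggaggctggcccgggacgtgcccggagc
Nrarp: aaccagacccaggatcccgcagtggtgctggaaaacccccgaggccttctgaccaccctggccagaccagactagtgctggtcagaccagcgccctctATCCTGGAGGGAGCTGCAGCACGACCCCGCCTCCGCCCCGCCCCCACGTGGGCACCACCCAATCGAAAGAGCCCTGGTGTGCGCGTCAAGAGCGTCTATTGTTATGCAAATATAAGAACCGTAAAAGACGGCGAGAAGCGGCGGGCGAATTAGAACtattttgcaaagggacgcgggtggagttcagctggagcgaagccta
Peaks of all 4 libraries covered 176 of 300 bases at Notch1, 91 at Notch3 and 156 at Nrarp, and 300 at Notch2 and 155 at Dtx1. The 5 windows were rich in G and C, at 68.3% (Notch1), 73.0% (Notch2), 70.0% (Notch3), 59.3% (Dtx1) and 60% (Nrarp), beside a median of 53.0% over 32619 promoter windows. They held 23, 41, 25, 26 and 21 CpG pairs in the same order, beside a median of 7. Searched on both strands, none of the 5 windows held the RBPJ core TGGGAA (found in 25.4% of all windows) or its longer form GTGGGAA (6.38%), which contains it. None held TGCTGAC (4.71%), one arm of the MAF recognition element. These letters are absent from the windows alone, which says nothing of binding elsewhere.

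Most open regions at the Notch genes were open in both genotypes. Of 119 regions called in at least 2 libraries, 79 (66.4%) were called in all 4, beside 64.8% over all genes. By gene these were 12 of 21 at Notch1, 19 of 30 at Notch2, 13 of 17 at Notch3, 9 of 10 at Dtx1, 16 of 27 at Hes1 and 10 of 14 at Nrarp. The 39 regions called in 1 library had a median width of 97 bp, against 263 bp for the 79. Of the 15 regions called in 3 libraries, 10 were missing in WT 1, the shortest list, as were 11918 of 19439 over all genes. The number of called regions at the 6 genes was 120 and 116 in KO 1 and KO 2, against 95 and 119 in WT 1 and WT 2, so the genotypes overlapped.

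**Figure D1:**
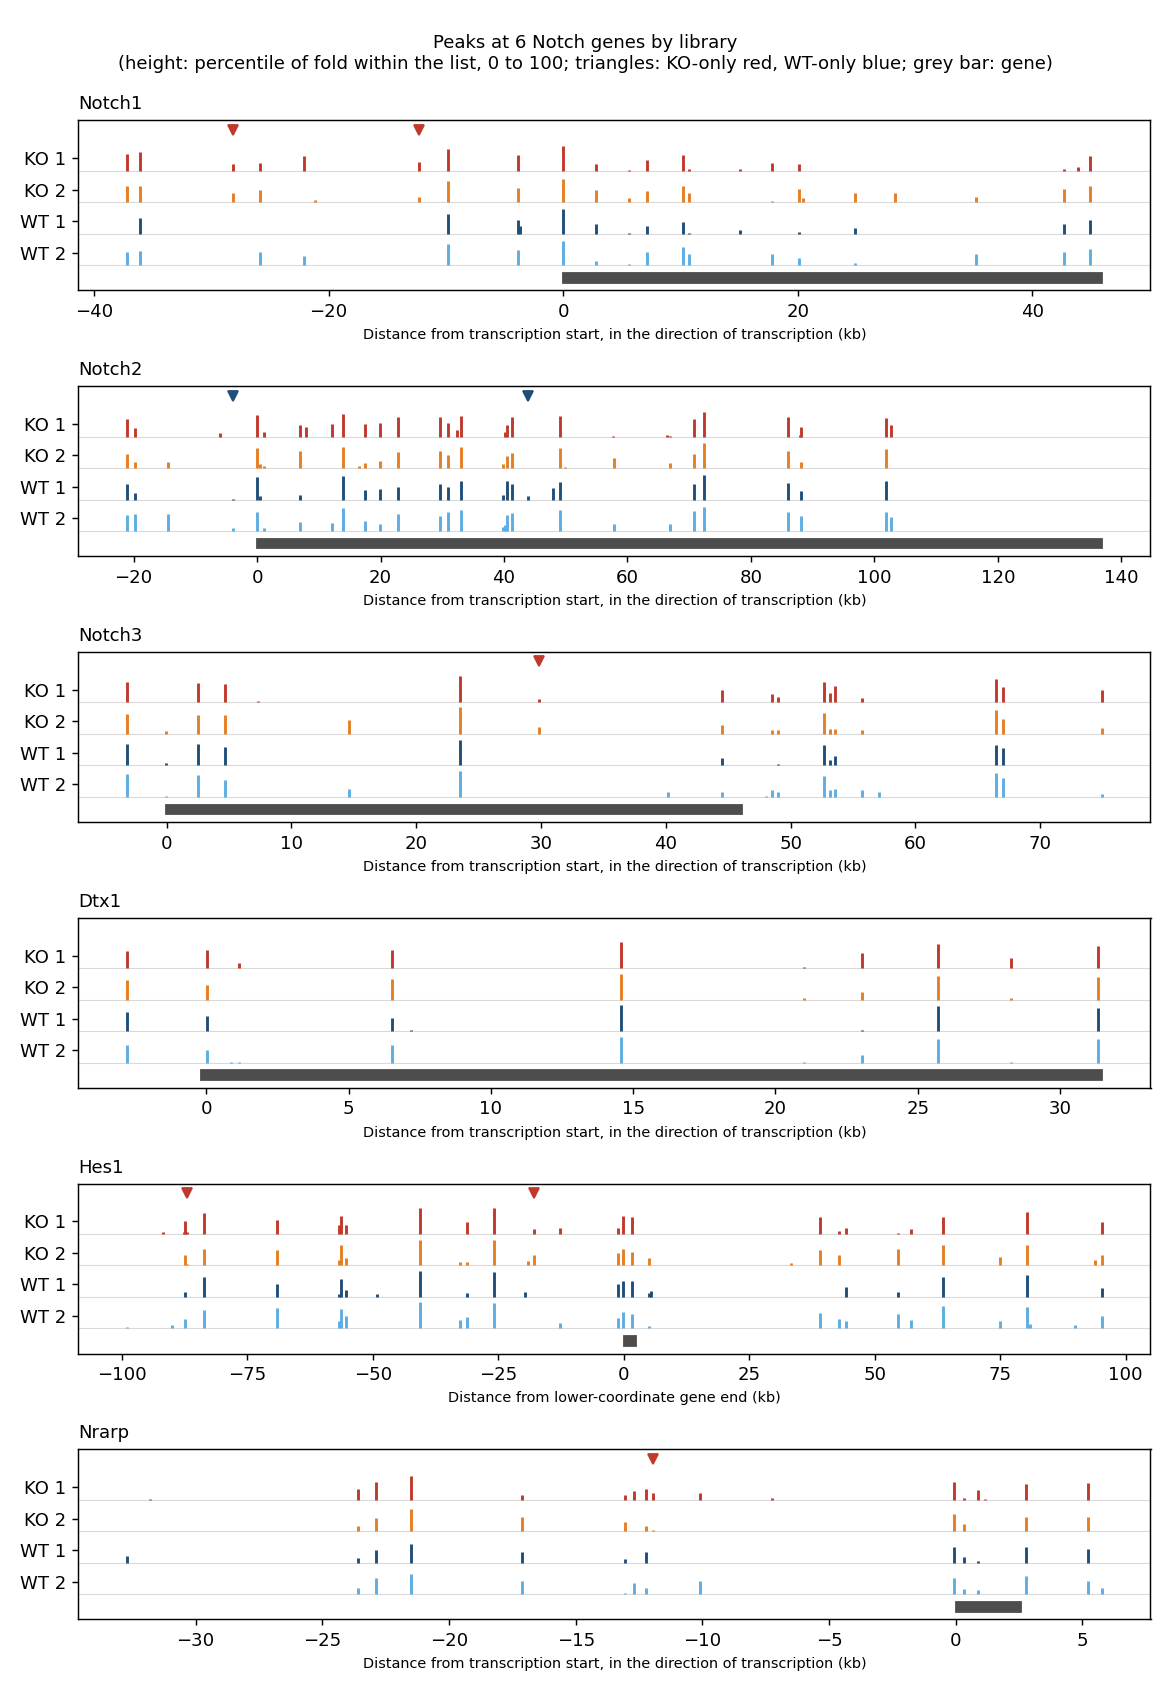
Peaks at each gene, 1 track per library from KO 1 at the top to WT 2 at the bottom, against distance from the transcription start in kb (for Hes1, from the lower-coordinate gene end). Line height is the percentile of a peak's fold within its own list (0 to 100), grey bars are gene bodies, and triangles mark the 6 KO-only (red) and 2 WT-only (blue) regions. The tall peaks recur in all 4 tracks.

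Regions called in 1 genotype alone were few and weak. KO-only regions, those called in both KO libraries and neither WT library, numbered 6 of 119, or 5.04%, beside 4.19% over all genes. WT-only regions numbered 2 of 119, or 1.68%, beside 2.90% over all genes. Neither count stood far from the share over all genes. All 8 lay outside start sites, and Dtx1 had none of either kind.

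Notch1 had 2 KO-only regions, both upstream of the gene. The nearer one, at 26515988 to 26516166 on chromosome 2, lay 12.2 kb from the gene and had a −log10 q of 5.54 (KO 1) and 5.85 (KO 2). The farther one, at 26531931 to 26532036, lay 28.1 kb away with 3.91 (KO 1) and 7.64 (KO 2). Within the full lists, their folds stood at percentiles 33.4 and 20.2 (nearer) and 24.6 and 35.6 (farther) in KO 1 and KO 2, so they belonged to the lower part of both lists.

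Hes1 also had 2 KO-only regions, at 30047406 to 30047560 and 29978288 to 29978409 on chromosome 16, which were 17.8 and 86.9 kb from the gene. In KO 1 and KO 2 the −log10 q was 2.87 and 6.89 at the nearer one and 2.44 and 2.47 at the farther one. Notch3 had 1 within the gene on chromosome 17, from 32136925 to 32137157 (2.27 and 4.69). Nrarp had 1 at 25168763 to 25168893 on chromosome 2, 11.9 kb from the gene (4.06 and 2.22). Notch2 was the one gene of the 6 with WT-only regions. One lay 3.81 kb upstream on chromosome 3, from 98009544 to 98009727, and reached 1.32 (WT 1) and 3.55 (WT 2) in −log10 q. The other lay inside the gene, from 98057339 to 98057425, and reached 3.27 (WT 1) and 2.23 (WT 2).

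The counts moved with the settings. When only peaks at 5 or more in −log10 q were used, 3 regions were KO-only and 0 WT-only (3.89% and 2.25% over all genes). These 3 were the nearer Notch1 region and 2 regions of Notch3 that were not KO-only in the full lists. Equal numbers of peaks per list also gave 3 and 0 (3.78% and 3.93%), namely both Notch1 regions and 1 of those at Notch3. KO-only regions numbered 16, 20, 6 and 17 without KO 1, KO 2, WT 1 and WT 2, and WT-only regions 4, 5, 10 and 10, a rule that 3 lists meet more easily. Over all genes the KO-only shares without those libraries were 11.6%, 16.3%, 5.74% and 16.6%, and the WT-only shares 6.12%, 6.21%, 14.7% and 7.85%.

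For regions called in all 4 libraries, the fold of the summit over local background was ranked within each library over the 78650 regions called in all 4, and given as a percentile from 0 to 100. The same regions are ranked in every library, so each ranking has the same length. List length still enters through the set, since a region missing from a short list is left out. Over the 79 regions of the 6 genes the median percentile was 38.1, with 9 regions at 75 or above and 32 under 25, so most regions at these genes were of modest height. Regions inside the gene bodies had a median of 38.1 (43 regions), and those outside 34.8 (36 regions).

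The start sites of the 3 receptors differed widely in height, and at each the percentiles of the genotypes overlapped. With 2 libraries each, overlap does not show that the genotypes were alike. Notch1, the receptor of T lineage commitment, had its tallest region there (chromosome 2, 26503640 to 26503980). Its percentiles were 87.8 and 81.7 in KO 1 and KO 2, against 88.1 and 86.7 in WT 1 and WT 2. The 4 summits fell within 5 bp of each other, from 26503823 to 26503828, next to the annotated start at 26503822. At Notch2, a receptor best known from marginal zone B cells, the start region (chromosome 3, 98013217 to 98013936) stood at 65.7 and 62.1 in the KO libraries, against 77.5 and 54.9 in the WT libraries, and the genotypes overlapped.

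At its start, Notch3 had a low fold over local background in all 4 libraries. The region there (chromosome 17, 32166853 to 32167059) stood at percentiles 0.583 and 2.69 in KO 1 and KO 2, against 2.54 and 0.433 in WT 1 and WT 2. By its mean percentile it was the lowest of the 13 Notch3 regions called in all 4 libraries. The tallest lay 23.5 kb into the gene, at 32143081 to 32143623, with percentiles of 94.8 and 98.2 in the KO libraries, against 93.7 and 96.8 in the WT libraries, and summits within 1 bp. By the mean over libraries, Notch3 thus had its tallest region inside the gene and its lowest at the start, although in WT 1 the regions from 32118247 to 32118493 (0.166) and from 32117808 to 32117965 (1.96) were lower still.

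The targets had start sites of middling height that overlapped between genotypes. Nrarp (25180567 to 25180811) stood at 43.0 and 45.5 in the KO libraries, against 48.5 and 34.3 in the WT libraries. Dtx1 (chromosome 5, 120711502 to 120711796) stood at 49.8 and 35.3 in the KO libraries, against 44.8 and 22.7 in the WT libraries. The region over the lower-coordinate end of Hes1 (chromosome 16, 30065065 to 30065432) stood at 44.8 and 44.0 in the KO libraries, against 48.3 and 38.3 in the WT libraries.

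As at Notch3, the tallest regions of Notch2, Dtx1, Hes1 and Nrarp lay away from the start, so Notch1 was the exception among the 6 genes. Notch2 was highest 72.4 kb into the gene at 98085831 to 98086132, with percentiles of 86.4 and 87.9 in the KO libraries, against 87.9 and 82.4 in the WT libraries. Dtx1 was highest inside the gene at 120696902 to 120697300, with percentiles of 95.5 and 93.3 in the KO libraries, against 97.1 and 92.0 in the WT libraries. Hes1 was highest 40.4 kb from the gene at 30024657 to 30024968, with 94.7 and 94.9 in the KO libraries, against 96.3 and 97.3 in the WT libraries. The Hes1 region thus lay a little lower in both KO libraries, with a difference of −2.00 points. A further tall Hes1 region 25.8 kb from the gene, at 30039212 to 30039595, went the other way, with 93.0 and 93.0 in the KO libraries, against 90.7 and 90.2 in the WT libraries.

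**Figure D2:**
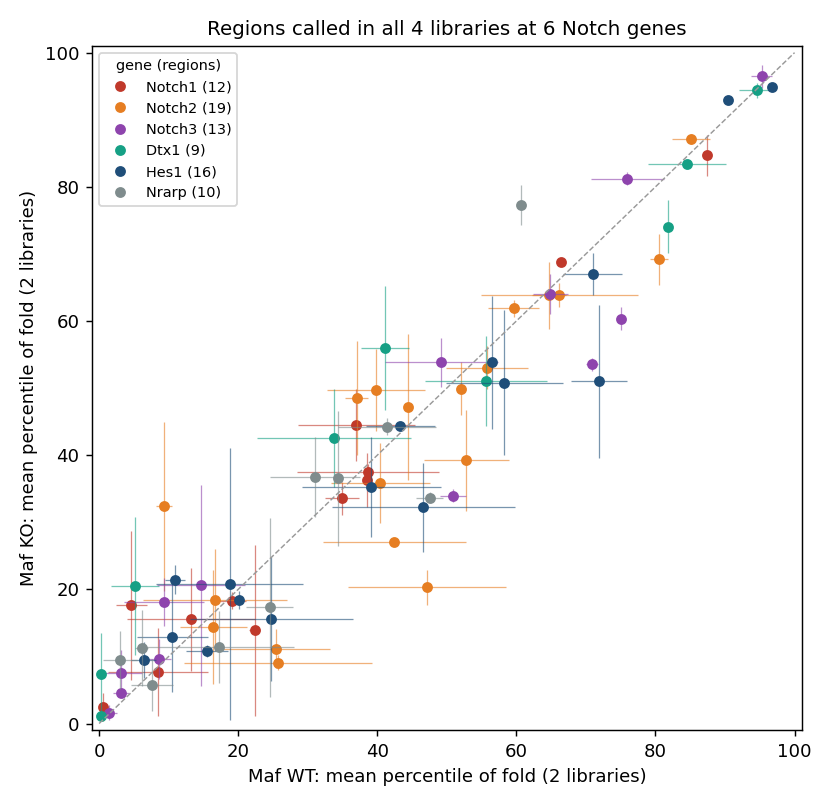
Mean percentile of fold in the 2 Maf KO libraries (vertical axis) against the 2 Maf WT libraries (horizontal axis) for the 79 regions called in all 4 libraries, coloured by gene. Bars run from the lower to the higher library of a genotype and the dashed line marks equality. Points follow the line, and the spread between libraries is widest in the lower and middle ranks.

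In 13 of the 79 regions both KO percentiles lay below both WT percentiles (16.5%, beside 18.1% over all genes), and in 10 both lay above (12.7%, beside 18.3%). The 6 genes therefore showed no excess of separated regions in either direction. By gene, the regions lower in KO numbered 0 of 12 at Notch1, 5 of 19 at Notch2, 3 of 13 at Notch3, 1 of 9 at Dtx1, 3 of 16 at Hes1 and 1 of 10 at Nrarp. Those higher in KO numbered 1, 2, 0, 4, 2 and 1 at the same genes. The median KO minus WT difference was −0.811 points over the 79 regions and −0.0764 over all genes. The median absolute difference between genotype means was 4.39 points, beside 7.40 between the KO libraries and 6.06 between the WT libraries (5.64, 6.47 and 8.18 over all regions).

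Among these, the widest differences at Notch2 ran both ways within the gene. At 98053877 to 98054132, 40.5 kb into the gene, the percentiles were 17.7 and 22.9 in the KO libraries, against 58.5 and 35.8 in the WT libraries, a difference of −26.8 points (−37.9 to −17.1 with 1 library left out). At 98020237 to 98020593 they were 19.8 and 45.0 in the KO libraries, against 8.19 and 10.5 in the WT libraries, a difference of 23.0 points (11.3 to 36.5 without KO 1, KO 2 or WT 1, and no value without WT 2). The KO values of that second region came from peaks at 98020453 to 98020593 (KO 1) and 98020387 to 98020569 (KO 2), which the WT 1 peak at 98020237 to 98020313 did not overlap. For WT 1 the difference there therefore compares separate peaks within 1 merged region. The WT 2 peak at 98020267 to 98020588 did overlap both KO peaks, and without WT 1 the difference was 23.1 points. The other 4 Notch2 regions lower in KO differed by −16.7 to −11.4 points.

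At Notch3 all 3 separated regions were lower in KO. A broad region 2.49 kb into the gene (32164048 to 32164756) stood at 54.6 and 52.5 in the KO libraries, against 71.7 and 70.0 in the WT libraries, with summits within 33 bp and a difference of −17.3 points (−17.7 to −14.4 with 1 library left out, −9.63 when ranked in the own list). A region 20.8 kb beyond the gene's 3′ side (32099742 to 32100062) stood at 35.0 and 33.0 in the KO libraries, against 52.8 and 49.0 in the WT libraries, a difference of −16.9 points (−18.5 to −14.5, and −9.67 in the own list). When 0.5 of a region had to be covered, the same region counted as KO-only, since the covered share lay just above that limit in KO 2 and just below it in both WT libraries. The third, 3.01 kb upstream of the gene (32169907 to 32170177), stood at 62.0 and 58.6 in the KO libraries, against 74.8 and 75.2 in the WT libraries. In each of these 3 regions the gap between genotypes exceeded the gap within either genotype. They were picked for their separation, so this gap is a description and no support. Over all genes, 18.1% of regions called in all 4 libraries were lower in both KO libraries. The start region between the upstream and the intragenic one did not separate the genotypes, as described above.

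Of the 9 Dtx1 regions called in all 4 libraries, 4 were higher in KO and 1 lower. Over all genes, 18.3% of such regions were higher and 18.1% lower. The widest were inside the gene, at 120688489 to 120688751, with 30.9 and 10.3 in the KO libraries, against 1.64 and 8.59 in the WT libraries, and at 120704916 to 120705374, with 46.7 and 65.2 in the KO libraries, against 37.7 and 44.6 in the WT libraries. Their differences were 15.5 points (6.32 to 27.2 with 1 library left out, 23.8 in the own list) and 14.8 points (5.57 to 23.4), and in both the nearest KO and WT libraries lay less than 3 points apart. The lower one, at the 3′ end of the gene (120680233 to 120680466), stood at 70.2 and 78.0 in the KO libraries, against 81.4 and 82.1 in the WT libraries.

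At Hes1 the widest differences were far from the gene. A region 60.9 kb away (30128678 to 30129194) stood at 39.6 and 62.4 in the KO libraries, against 67.8 and 75.9 in the WT libraries, a difference of −20.9 points (−31.0 to −9.07 with 1 library left out, −11.6 in the own list). One 87.3 kb away on the other side (29977937 to 29978100) stood at 23.7 and 19.3 in the KO libraries, against 9.53 and 12.4 in the WT libraries, a difference of 10.5 points (9.28 to 13.5, and 16.2 in the own list). Both regions that overlap the Hes1 gene body had overlapping genotypes.

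Nrarp and Notch1 had fewer separated regions. At Nrarp, the region at 25159152 to 25159372, 21.4 kb upstream and the tallest of the gene, stood at 80.2 and 74.4 in the KO libraries, against 60.3 and 61.0 in the WT libraries, a difference of 16.6 points (13.2 to 18.8 with 1 library left out). The region 106 bp past the end of the gene (25183445 to 25183611) stood at 34.5 and 32.9 in the KO libraries, against 45.6 and 49.5 in the WT libraries, a difference of −13.8 points (−15.2 to −11.7, and −7.04 in the own list). At Notch1 a single region separated, 9.57 kb upstream at 26513396 to 26513838, with 68.6 and 69.1 in the KO libraries, against 66.4 and 66.3 in the WT libraries, a difference of 2.51 points. These regions were named because their differences were among the widest of each gene, and no test supports them one by one.

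Averaged over each gene's regions called in all 4 libraries, the library means of Dtx1, Notch2 and Hes1 did not overlap between genotypes. At Notch2 they nearly touched, with 44.51 in KO 1 against 44.54 in WT 2. With 2 libraries against 2, no gene can show more than such non-overlap. The mean percentile was 47.8 ± 0.798 in KO and 44.1 ± 3.18 in WT at Dtx1, 42.2 ± 3.25 in KO and 45.3 ± 1.15 in WT at Notch2, and 39.5 ± 1.80 in KO and 42.6 ± 0.0961 in WT at Hes1 (SD, n = 2 each). The KO minus WT differences of 3.70, −3.13 and −3.06 points had p = 0.333 in the two-sided exact permutation test over libraries, the smallest value this design can give, which 35.3% of all genes reached. After Benjamini-Hochberg adjustment over 16605 genes the exact permutation p was 0.944 for each.

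Notch1 averaged 31.7 ± 4.25 in KO and 30.9 ± 0.283 in WT, Notch3 38.9 ± 2.02 in KO and 40.2 ± 1.87 in WT, and Nrarp 28.4 ± 1.13 in KO and 27.3 ± 4.45 in WT (SD, n = 2 each). The differences were 0.815, −1.31 and 1.02 points, with exact permutation p of 1.00, 0.667 and 1.00. The interquartile range over all genes ran from −3.11 to 3.48 points, so Notch1, Notch3 and Nrarp fell inside that range, as did Hes1, with Notch2 just outside it and Dtx1 just above. In order of mean percentile in KO the genes ran Dtx1, Notch2, Hes1, Notch3, Notch1 and Nrarp, and the KO libraries of Notch2, Hes1 and Notch3 overlapped in this measure, as did those of Notch1 and Nrarp.

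**Figure D3:**
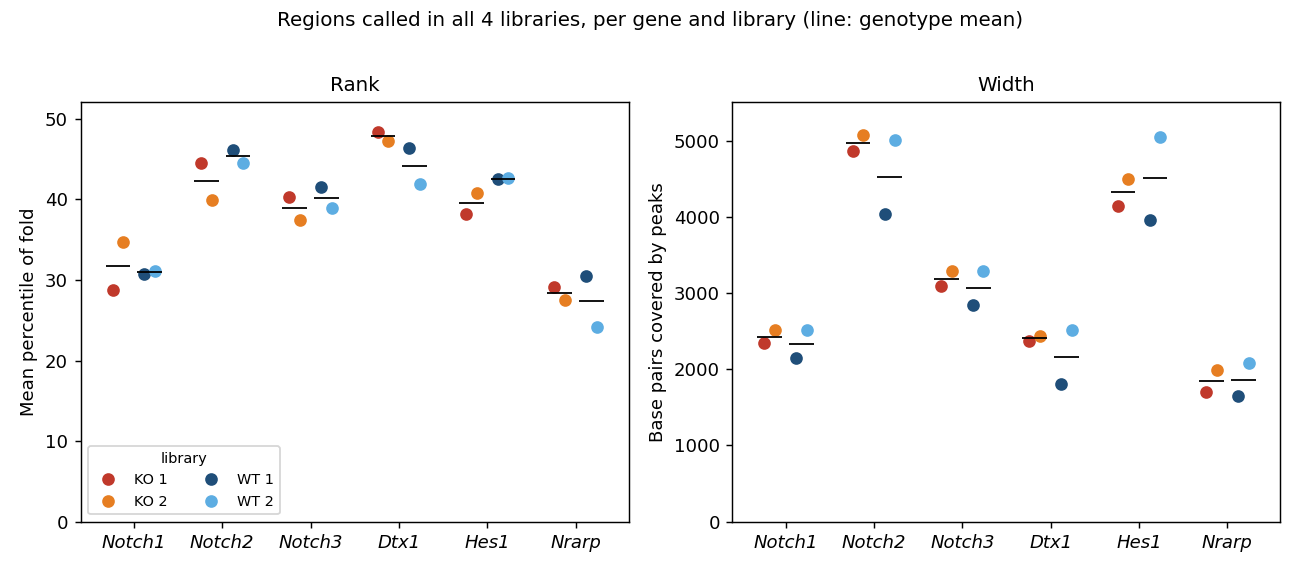
Values per gene and library over regions called in all 4 libraries, with Maf KO (KO 1 red, KO 2 orange) left of Maf WT (WT 1 dark blue, WT 2 light blue) and a line at each genotype mean. Left, mean percentile of fold (0 to 100); right, base pairs covered by peaks. In base pairs WT 1 is lowest at all 6 genes, and the KO libraries lie within the WT range or near it.

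Peak widths showed the libraries more than the genotypes. Summed over each gene's regions called in all 4 libraries, peaks covered 4866 and 5075 bp at Notch2 in KO 1 and KO 2, against 4045 and 5016 bp in WT 1 and WT 2. At Dtx1 they covered 2378 and 2438 bp in the KO libraries, against 1805 and 2523 bp in the WT libraries, and at Hes1 4149 and 4495 bp in the KO libraries, against 3962 and 5052 bp in the WT libraries. WT 1 was the lowest library at all 6 genes, as in the median width of all such regions (213 and 227 bp in KO 1 and KO 2, against 191 and 236 bp in WT 1 and WT 2).

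The log2 ratio of covered base pairs, KO over WT, was 0.06 at Notch1, 0.14 at Notch2, 0.06 at Notch3, 0.17 at Dtx1, −0.05 at Hes1 and −0.01 at Nrarp, beside a median of 0.03 over all genes. No gene's exact permutation p was below 0.667. Regions narrower in both KO libraries numbered 8 of 79 (10.1%, beside 12.6% over all genes), and those wider in both numbered 16 (20.3%, beside 17.2%). The summits of the 4 libraries fell within a median of 52 bp of each other in the 79 regions, and within 50 bp in 38 of them.

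The rest of the pathway, taken from a list of 39 genes, gave a similar picture. Among 407 regions called in at least 2 libraries, 18 were KO-only (4.42%) and 6 WT-only (1.47%). Among 276 called in all 4 libraries, both KO percentiles lay below WT in 45 (16.3%) and above in 46 (16.7%). The shares over all genes are those given above (4.19%, 2.90%, 18.1% and 18.3%).

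**Figure D4:**
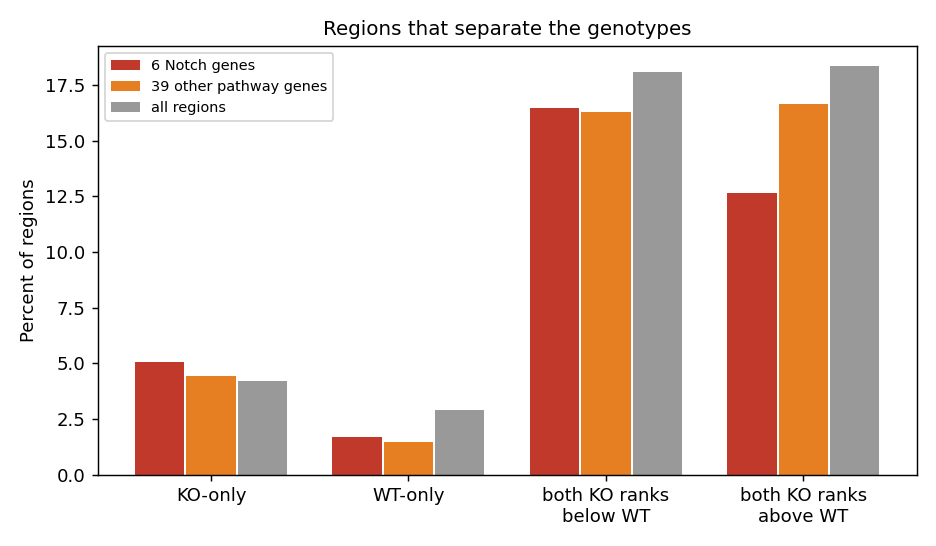
Percent of regions that are KO-only or WT-only (of those called in at least 2 libraries) or whose 2 KO percentiles lie below or above both WT percentiles (of those called in all 4), for the 6 Notch genes, 39 other pathway genes and all regions within 100 kb of a gene. The 6 genes stand at 5.04%, 1.68%, 16.5% and 12.7%, beside 4.19%, 2.90%, 18.1% and 18.3% for all regions.

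By role, the 5 ligand genes, whose products sit on neighbouring cells and trigger the receptors, had 1 KO-only and 0 WT-only regions among 33. These are 3.03% and 0%, beside 4.19% and 2.90% over all genes. The KO-only one was 65.9 kb from Jag1. The 8 genes of the proteases that cut the receptor had 3 KO-only (7.14%) and 0 WT-only regions among 42. Of these, the one at Aph1b, a part of γ-secretase, reached 3.17 (KO 1) and 4.69 (KO 2) in −log10 q. The 4 glycosyltransferase genes, which tune ligand choice, had 0 of either kind among 21.

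Among the 6 genes of the nuclear complex and its corepressors, 7 regions were KO-only (3.76%) and 6 WT-only (3.23%) of 186. The shares over all genes were 4.19% and 2.90%. Rbpj itself had 1 KO-only region 87.1 kb away and 1 WT-only region within the gene, at 53608924 to 53609097 on chromosome 5, which reached 4.59 (WT 1) and 9.01 (WT 2) in −log10 q. Maml2, a coactivator of the Mastermind family, had 3 KO-only and 2 WT-only regions, Maml1 had 1 WT-only region, and Maml3 had 3 KO-only regions and 1 WT-only. Turnover genes had 2 KO-only (2.90%) and 0 WT-only regions among 69. Of these, the one within Fbxw7, which marks Notch for degradation, had a −log10 q of 3.16 and 3.66 in KO 1 and KO 2. Notch4 had 1 KO-only (12.5%) and 0 WT-only regions among 8.

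The 7 other target genes had 4 KO-only and 0 WT-only regions among 48 (8.33% and 0%, beside 4.19% and 2.90% over all genes). Those 40.7 kb from Hey2 and 41.9 kb from Myc had a −log10 q of at least 3 in both libraries. Of 31 regions of these 7 genes called in all 4 libraries, 9 were lower in both KO libraries (29.0%, beside 18.1% over all genes). Those higher in both numbered 6 (19.4%, beside 18.3%). Hey1, a relative of Hes1, had 2 regions called in all 4 libraries, and both were lower in KO. Its mean percentiles were 45.3 and 62.0 in the KO libraries, against 72.7 and 68.4 in the WT libraries, a difference of −16.9 points (exact permutation p = 0.333). It was −1.52 when regions within 20 kb alone were used, −8.19 without KO 1 and −24.7 without KO 2. Numb, an inhibitor of Notch, differed by −14.4 points over 2 regions, Adam17, a protease of the receptor, by −13.3 over 2, and Jag1 by 8.90 over 4. These values moved with single libraries, to −1.80 without WT 1 and −22.6 without KO 2 at Numb, to −5.71 without KO 2 and −20.1 without KO 1 at Adam17, and to 1.27 without KO 1 and 17.2 without KO 2 at Jag1. Jag1 was also at 0.318 within 20 kb and 0.650 at a −log10 q of 5 or more. Mfng differed by −8.50 points (−13.5 to −2.78 with 1 library left out), Spen, a corepressor, by −4.23 (−8.50 to −2.62) and Notch4 by 0.452 (−4.87 to 6.77), and none of these genes could pass an exact test in this design.

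The genes most like the members in their 4 per-library median percentiles were Lrrc1 for Notch2, Lhx2 for Dtx1, Hes1's closest gene Kdm2b, Spint2 for Nrarp, Hormad2 for Notch3 and Morc1 for Notch1. Their Euclidean distances were 2.09, 2.48, 3.11, 3.20, 3.22 and 4.41 percentile points, among 5375 genes with at least 5 regions called in all 4 libraries. The measure rests on 4 libraries and is a description.

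The 100 kb limit touched Hes1 alone, since the other genes have closer neighbours. Its farthest region inside the limit, 98.9 kb away, was called in WT 2 alone, with a −log10 q of 1.95. The first outside, 106.2 kb away, had a −log10 q of 13.3 in KO 1 and 15.7 in KO 2, against 6.26 in WT 2 and no call in WT 1. With that one, 25 regions between 100 and 200 kb had Hes1 as their nearest gene and were not counted.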

How the data were processed

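Omni-ATAC-seq peak lists of 2 Maf KO and 2 Maf WT libraries were used. Per the submitters' processing notes, the builds were mm10 and GRCm38, and the tools included MACS2 2.1.1 and Bowtie2 2.3.4.1, besides Picard, cutadapt, Trim Galore, deepTools 3.1.2 and bedtools. Their roles, the handling of duplicates, any Tn5 shift and the peak settings are not stated there. The deposited lists give 1 list per library, with a fold of summit over local background (column 7), a −log10 p and −log10 q (columns 8 and 9), a whole-number score and a summit offset. Each deposited list ends at a q-value of 0.1. The deposited score and summit offset were not compared between genotypes. Folds were ranked only within a library.

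Peaks on chromosomes 1 to 19 and X were merged at 1 bp of overlap. A library's value in a region is its highest fold. The nearest protein-coding gene body came from a RefSeq table of GRCm38.p6, the build of the lists. That table has no exons, so exon and intron positions are not given. All 39 pathway genes matched it. A promoter sequence was found for 5 of 6 genes. The background pileup is the value that gives both the deposited fold and −log10 p under a Poisson model, for the peaks sharing the lowest background. Read depth is otherwise unknown.

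Named in full were each gene's start region, its genotype-only regions and its 2 separated regions with the largest difference, and, of the pathway genes, those with a genotype-only region at a −log10 q of at least 3 in both libraries and the one per role with the largest difference; some items under these rules are not reported here. Further regions (tallest and lowest of a gene, the third separated region of Notch3, the lower one of Dtx1, the second tall one of Hes1) were chosen after their values were seen. Members and lists were chosen with earlier results of these data known. Tests are two-sided exact permutation tests over 4 libraries, with Benjamini-Hochberg adjustment over all genes. Alternatives left out each library in turn, raised the −log10 q to 5, equalised list lengths at 102718 peaks, used 20 kb, required 0.5 of a region to be covered, ranked by −log10 q or in the own list, took median widths, and blocked on replicate number. Code was tested on simulated data. Python 3.11.15, numpy 2.4.6, pandas 2.3.3 and scipy 1.17.1 were used.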

Additional observations from a re-analysis of the deposited data

How the results depend on the processing

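No difference could pass an exact permutation test under any setting, and its p was at least 0.333 throughout. KO-only regions at the 6 genes (6) were 3 with a −log10 q of at least 5 and 3 with equal numbers of peaks, and 6 to 20 with 1 library left out. WT-only regions (2) were 0, 0 and, with 0.5 of a region covered, 1 (3.32% over all genes), and 4 to 10 with 1 library left out. The other shares of KO-only and WT-only regions over all genes under these settings are given above. Regions lower in both KO libraries (13) were 24 to 32 with 1 library left out (31.9% to 39.5% over all genes). Regions higher in both (10) were 5 with a −log10 q of at least 5 (18.2% over all genes) and 5 with 0.5 covered (17.8%). With 1 library left out they were 18 to 29 (31.9% to 35.5% over all genes). In both directions, non-overlap is easier to meet with 3 libraries.

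Percentile differences kept their sign at Notch2, Dtx1 and Hes1 under every setting (with 1 library left out −5.49 to −0.680, 1.70 to 5.99 and −4.54 to −0.852). At these genes the library means did not overlap between genotypes, so leaving out 1 library could hardly turn the sign. The replicate block cannot change a difference, so the kept sign under these settings is no support. Some differences were close to none, with −0.277 at Notch2 and −0.473 at Hes1 in the own list. At Dtx1 the difference was 0.908 with 0.5 covered. The sign turned at Notch1 (−2.31 to 5.01 with 1 library left out) and at Notch3 (2.33 in the own list, −2.51 to 1.20 with 1 library left out). It also turned at Nrarp (−1.95 within 20 kb, −0.732 by −log10 q, −2.42 to 2.74 with 1 library left out). Of the other pathway genes named, Notch4 turned (−0.631 with equal numbers, −5.84 with 0.5 covered, −4.87 to 6.77 with 1 library left out). The cause was not tested.

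Width ratios turned at Notch3 (−0.0067 with a −log10 q of at least 5, −0.0076 within 20 kb, −0.013 with 0.5 covered), Dtx1 (−0.058, −0.060 with equal numbers, −0.16 with 0.5 covered), Nrarp (0.088, 0.094 with equal numbers, 0.094 with 0.5 covered, 0.052 by medians) and Hes1 (0.10 by medians). With 1 library left out the log2 ratios were −0.10 to 0.18 (Notch1), −0.0080 to 0.26 (Notch2), −0.036 to 0.16 (Notch3), −0.067 to 0.42 (Dtx1), −0.23 to 0.18 (Hes1) and −0.19 to 0.16 (Nrarp). The 11 widest separated regions were picked for non-overlap, so leaving out 1 library could hardly turn the sign of their differences. The 20 kb limit and the replicate block left these differences unchanged. As a description and no support, the differences kept their sign where they had a value. None could be had for the second Notch2 region without WT 2, at a −log10 q of at least 5 or with 0.5 covered, nor for 4 others in 1 or both of the last 2 settings, and with 0.5 covered the Notch3 region beyond the gene counted as KO-only, the opposite direction.

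Libraries share only a replicate number. Their deviations correlated at 0.116 over all regions called in all 4 and 0.233 over those of the 6 genes. With the replicate block the differences were as in the unblocked test (for Notch2 −3.13 points), and the smallest exact permutation p was 0.5. Depth and list length, which did not go together, limit what a missing call shows. With 2 libraries against 2 no difference could pass.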
